A study of Mus musculus with 23 samples.

Results

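The integrin, laminin and basement membrane genes described here are 40 symbols: the integrin alpha and beta subunits, the laminin alpha, beta and gamma chains, and agrin (Agrn), perlecan (Hspg2), the nidogens (Nid1, Nid2) and dystroglycan (Dag1), picked by symbol alone and without use of any measured value. All 40 were present among 35455 genes in the table of normalized counts for BRAF and BRAF PI3Kα tumors, and all 40 among 35454 genes in the table for the PGC1α cohorts. At a mean normalized count of at least 10, 40 of 40 entered the tests in the first table (17558 genes in all) and 38 of 40 in the second (17424 genes in all), where Lamc3 and Nid2 lay below the limit.

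The RNA came from tdTomato-positive cells sorted from dissociated mouse lungs, in 23 libraries. Every mouse carried the Braf CAT/+ allele, which makes an activated BRAF together with tdTomato after CRE recombination, and every tumor was started in adult mice by intranasal instillation of an adenovirus in which the surfactant protein C (Sftpc) promoter drives CRE, so that recombination was directed to alveolar type 2 (AT2) pneumocytes. BRAF tumors (CAT/+) were sampled at 2, 6 and 12 weeks post-initiation in 1, 3 and 2 libraries, and BRAF PI3Kα tumors (CAT/+; HR/+, which adds an activated PI3Kα allele) in 2, 4 and 2 libraries. The PGC1α cohorts, normalized on their own, were BRAF tumors at 12 weeks with 1 conditional allele of Ppargc1a removed (PGC1a mutant/+, "het", 5 libraries) or both (PGC1a mutant/mutant, "null", 4 libraries). Mice of the 12 week groups received a lower virus titer than those of the 2 and 6 week groups, which shared 1 titer. Week and titer therefore cannot be told apart in comparisons with 12 weeks. Labelled sex was not balanced, with 5 female and 1 male library in BRAF, 3 and 5 in BRAF PI3Kα, 3 and 2 in het and 3 and 1 in null. The study's methods treat separate animals and tumors as independent replicates, but the labels do not tie libraries to mice, and p-values measure the spread between these libraries.

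Libraries that stood apart bear on nearly every result. The summed normalized counts per library, which reflect the normalization and not the sequencing depth, ran from 16433820 to 20287296 in the first table and from 7115753 to 9159567 in the second. The mean log2 level of 6 pan-epithelial markers was 7.76, 7.89 and 8.30 in BRAF PI3Kα 2 week replicates 1 and 2 and 6 week replicate 1, against 9.66 to 10.88 in the other 11 libraries of that table. These 3 libraries were also the highest of the 14 in endothelial markers (11.64 to 12.09) and mesenchymal markers (9.84 to 10.22), and the lowest in AT2 markers (11.56 to 13.22). In the PGC1α table, endothelial markers lay at 4.09 to 5.85 in het and 6.32 to 6.95 in null libraries, without overlap. Leukocyte markers there lay at 5.47 to 7.39 and 7.44 to 8.15, also without overlap. The Y-linked gene Kdm5d read 502 in BRAF PI3Kα 12 week replicate 1, labelled male, and 4728 in replicate 2, labelled female. Across the other 12 libraries of that table it lay at 234 to 508 where female and at 2090 to 4677 where male was labelled. Ppargc1a read 75.8 to 561 in het and 38.0 to 124 in null libraries, so the targeted gene overlapped between the groups.

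Integrins are pairs of an alpha and a beta subunit that span the cell membrane and bind the matrix or other cells. Epithelial cells stand on a basement membrane, a sheet of laminin trimers (1 alpha, 1 beta and 1 gamma chain) and type IV collagen that nidogens, perlecan and agrin link together. The α3β1, α6β1 and α6β4 pairs and dystroglycan hold cells to laminin, Lama3 and Lamb3 are chains of epithelial laminins, and αvβ6 activates latent TGFβ in the lung. Laminins with Lama4 are typical of blood vessels and those with Lama2 of muscle and mesenchyme, while β2 integrins (Itgb2 with Itgal, Itgam or Itgax) belong to leukocytes.

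The order of levels between genes was taken per kilobase of transcript and depended on the transcript length used. With the median protein-coding transcript of GENCODE, the highest mean normalized counts per kilobase in BRAF libraries were those of Itgav (5783), Itga9 (4857) and Itgb1 (4483). With the longest transcript they were 564, 1339 and 2659, and Itgb1 and Dag1 were then the highest. Itgb1, the beta subunit shared by most matrix-binding integrins, Dag1, Itga8, Itga9 and Itgav were among the highest 8 of 40 in BRAF libraries by either length. At the low end, Lama1 (1.71 per kilobase), Lamc3 (5.73) and Itgb8 (9.63) were the last 3 there by either length. In het libraries of the PGC1α table, Itga8 ranked 29 of 40 by the median transcript and 32 by the longest. Itgb1, Dag1 and Itga9 were among the highest 8 in het libraries by either length, and Itgav ranked 1 and 9.

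Across the 14 libraries of the first table, 12 of the 40 genes had their 3 highest values in the 3 libraries low in epithelial markers, against 6.98% of the 17558 genes tested. These were Itga1, Itga3, Itga5, Itga8, Itgb1, Lama2, Lama4, Lamb1, Lamc1, Lamc3, Nid1 and Nid2. Itga9 and Itgav were among the genes with their 3 lowest values there, as 5.09% of all genes tested had. Itga8, whose α8β1 pair binds nephronectin and is typical of mesenchyme, read 18590, 24355 and 15410 in BRAF PI3Kα 2 week replicates 1 and 2 and 6 week replicate 1. In the other 11 libraries it lay between 65.0 and 9984. Nid1, which joins laminin to type IV collagen, read 11610, 8385 and 8499 in the 3 libraries and 792 to 4722 in the others. Itgav, the αv subunit of the RGD-binding integrins, was at the other end, with 2814, 1767 and 2023 against 3139 to 6589. The 3 libraries thus stood outside the range of the other 11 for each of these genes. In sorted bulk RNA, fewer cells of a type and less RNA per cell cannot be told apart. As all 3 are BRAF PI3Kα libraries, and both of the 2 week ones are among them, those of the 40 genes with an unadjusted p under 0.05 in a genotype or week comparison are also given without them.

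**Figure D1:**
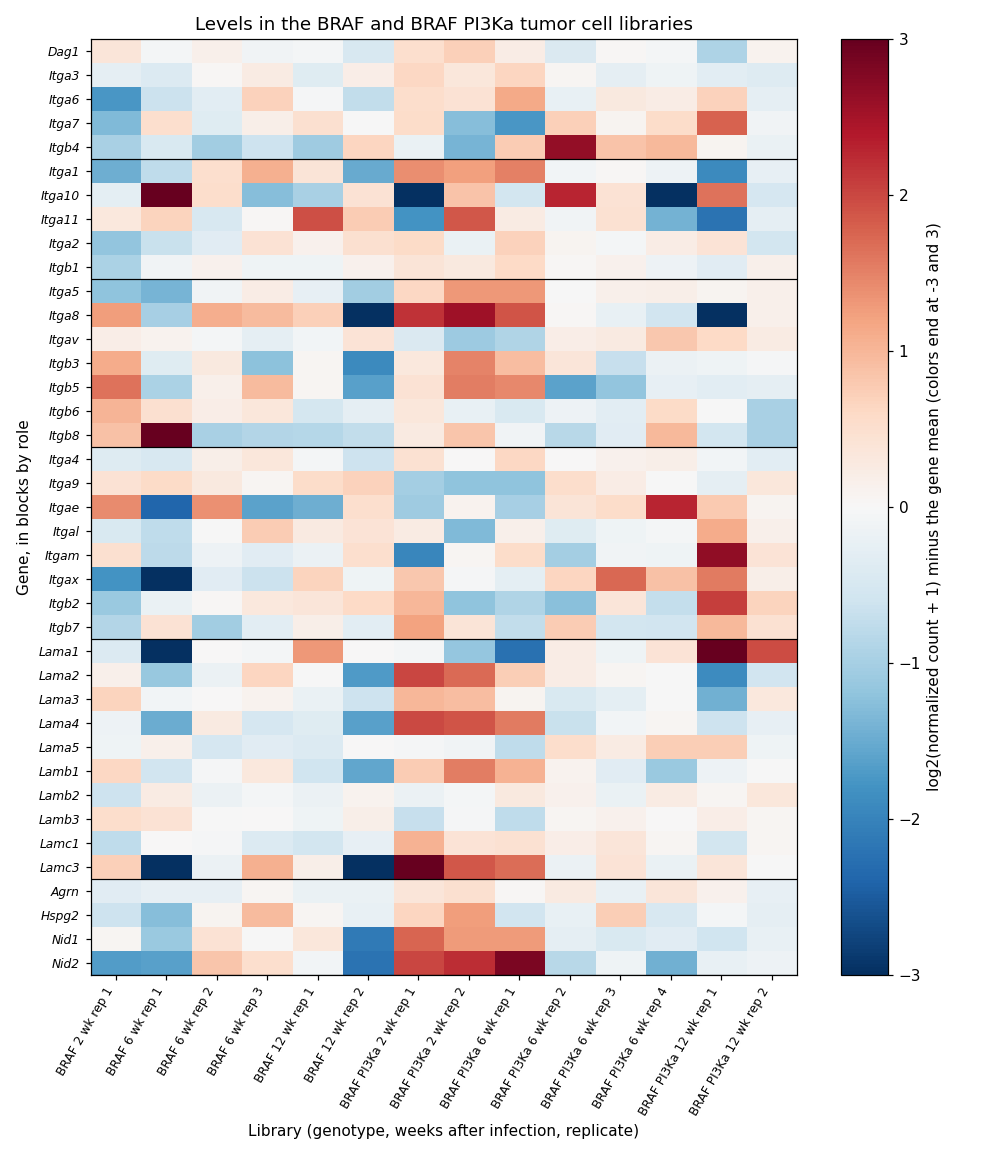
Level of the integrin, laminin and basement membrane genes (rows, in blocks by role) in the 14 libraries of BRAF and BRAF PI3Kα tumors (columns), as log2(normalized count + 1) minus the gene's mean over the 14 libraries, from blue (lower) to red (higher). BRAF PI3Kα 2 week replicates 1 and 2 and 6 week replicate 1 carry the 3 highest values of 12 genes, among them Itga8, Lama4 and Nid1, and the 3 lowest values of Itga9 and Itgav.

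For 8 of those 12 genes RefSeq start regions were at hand (GRCm38.p6, 250 bases before and 50 after the start). Among the 40, 26 had an entry. The hexamer GGGCGG, searched on both strands, was present in 6 of the 8 (Itga3, Itga5, Itgb1, Lama2, Lamb1, Nid1), in 15 of the 26 and in 35.7% of all 32851 windows. The heptamer TGANTCA, which reads the same on both strands, was in the windows of Itga3, Itga9 and Itgax and in 7.81% of all. The windows of Itga5, Itga8 and Nid1 are shown because these genes were high together in the same libraries, with GGGCGG and its reverse complement in capitals. They lie at chr15:103366742-103367041 on the minus strand, chr2:12301895-12302194 on the minus strand and chr13:13437352-13437651 on the plus strand, and only the Itga8 window lacks both motifs.
Itga5: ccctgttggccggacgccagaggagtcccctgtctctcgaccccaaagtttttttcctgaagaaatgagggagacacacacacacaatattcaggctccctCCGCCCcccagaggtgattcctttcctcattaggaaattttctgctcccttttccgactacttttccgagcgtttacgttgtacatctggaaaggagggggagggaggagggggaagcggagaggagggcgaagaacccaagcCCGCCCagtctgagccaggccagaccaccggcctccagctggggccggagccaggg
Itga8: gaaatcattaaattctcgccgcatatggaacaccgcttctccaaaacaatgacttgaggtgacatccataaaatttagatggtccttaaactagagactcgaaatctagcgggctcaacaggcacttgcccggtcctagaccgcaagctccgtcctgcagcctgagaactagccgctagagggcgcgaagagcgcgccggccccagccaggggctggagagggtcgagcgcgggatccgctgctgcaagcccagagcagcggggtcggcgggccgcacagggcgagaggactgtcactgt
Nid1: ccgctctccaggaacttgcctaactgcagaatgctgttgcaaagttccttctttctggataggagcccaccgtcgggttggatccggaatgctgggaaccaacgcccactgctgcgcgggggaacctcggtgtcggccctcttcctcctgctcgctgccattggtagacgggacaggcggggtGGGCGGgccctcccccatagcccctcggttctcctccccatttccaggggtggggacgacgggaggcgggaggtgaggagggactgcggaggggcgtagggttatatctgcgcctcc

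The comparison of BRAF PI3Kα with BRAF tumors over all weeks asked what mutant PI3Kα adds. None of the 40 genes passed an adjusted p of 0.05 in limma, where 4 of 17558 genes did (0.0228%). At an unadjusted p under 0.05 there were 8 of the 40, 7 of them with higher means in BRAF PI3Kα tumors, against 6.83% of all genes. The median log2 fold change was 0.30 over the 40 (0.10 with the endothelial marker level as a covariate) and 0.02 over all genes tested. Of the 40 estimates 28 were positive (24 with that covariate), as were 51.8% over all genes (50.2% with it). With labelled sex as a covariate, 4 of the 40 instead of 8 had an unadjusted p under 0.05, and 887 instead of 1200 of the 17558 genes. No gene of the 40 had non-overlapping genotypes, as 0.211% of genes did. The 8 are described below by role with their libraries, and none is a change that passed the test.

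Itga5 (chromosome 15, 103344286 to 103366763), the alpha subunit of the fibronectin receptor, had the smallest p. Itga5 read 167 in the BRAF library at 2 weeks, 145, 355 and 446 at 6 weeks, and 325 and 185 at 12 weeks. In BRAF PI3Kα libraries it read 590 and 940 at 2 weeks, 949, 383, 426 and 435 at 6 weeks, and 407 and 429 at 12 weeks. All 8 BRAF PI3Kα values lay above 5 of the 6 BRAF values, and the remaining one, BRAF 6 week replicate 3, lay within their range. The log2 fold change was 1.10 ± 0.31 (SE; adjusted p = 0.415), with an exact permutation p of 0.0023 over the 3003 possible assignments. Without the 3 libraries low in epithelial markers it was 0.74 (adjusted p = 0.692), and with the endothelial marker level as a covariate 0.64 (adjusted p = 0.602).

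Among laminin receptors, Itga6, the alpha subunit of α6β1 and of the hemidesmosomal α6β4, ran from 984 over a median of 2397 to 5327 in the 6 BRAF libraries. It ran from 2743 over 4253 to 7344 in the 8 BRAF PI3Kα libraries. The ranges overlapped broadly, with a log2 fold change of 0.82 ± 0.31 (SE; adjusted p = 0.644; exact permutation p = 0.0296). Itgb4, its hemidesmosomal partner, had an estimate of 1.02 ± 0.50 over all weeks (adjusted p = 0.730) and is taken up at 6 weeks below. Itga3, Itga7 and Dag1 had estimates between 0.05 and 0.16. Without the 3 libraries low in epithelial markers the Itga6 estimate was 0.61 (adjusted p = 0.849), with the endothelial marker level as a covariate 0.44 (adjusted p = 0.911) and with labelled sex as a covariate 0.56 (adjusted p = 0.953).

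The leukocyte integrin list held both directions. Itgax (CD11c; chromosome 7, 128129547 to 128150657), found on dendritic cells and alveolar macrophages, read 44.4 at 2 weeks, 15.6, 123 and 99.0 at 6 weeks and 248 and 142 at 12 weeks in BRAF libraries. In BRAF PI3Kα libraries it read 275 and 153, then 127, 245, 514 and 289, then 462 and 175. The highest BRAF value lay inside the BRAF PI3Kα range, and the lowest 4 values of the table were all BRAF. For Itgax the log2 fold change was 1.60 ± 0.52 (SE; adjusted p = 0.511; exact permutation p = 0.0090), and 1.91 without the 3 libraries low in epithelial markers (adjusted p = 0.527). Summed leukocyte markers, all 12 above 0 in every library, spanned 8361 to 15327 in BRAF and 6261 to 21565 in BRAF PI3Kα libraries, and those of 11 macrophage markers, of which C1qa and Marco were at 0 in some libraries, 1526 to 7201 and 2950 to 30285. In mean log2 level the macrophage markers lay at 4.86 to 7.36 (median 6.29) and 6.19 to 9.58 (median 6.80), lowest in the 2 BRAF libraries with the lowest Itgax. The part of either list in the Itgax values was not tested. Itgb2, the obligate partner of CD11c, had an estimate of 0.00 ± 0.49.

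Itga9, which pairs with β1, is related to α4 and is also made by epithelia, had the only negative estimate among the 8. It lay between 7127 and 11133 (median 9708) in BRAF libraries and between 2957 and 9877 (median 6292) in BRAF PI3Kα libraries. The 3 lowest values, 3390, 2957 and 2962, were those of the libraries low in epithelial markers. Its log2 fold change was -0.77 ± 0.28 (SE; adjusted p = 0.613; exact permutation p = 0.0300), -0.28 without these libraries (adjusted p = 0.854) and -0.42 with the endothelial marker level as a covariate (adjusted p = 0.892). The other leukocyte-listed subunits, Itga4, Itgae, Itgal, Itgam, Itgb2 and Itgb7, had unadjusted p-values above 0.05.

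Of 11 laminin chains, 3 had an unadjusted p under 0.05, as 6.83% of all genes did. A positive estimate was found for 9 of the 11 and for 51.8% of all genes. Lama4 (chromosome 10, 38965515 to 39110188), the alpha chain of vascular laminins, read 766 at 2 weeks, 306, 1038 and 600 at 6 weeks, and 664 and 276 at 12 weeks in BRAF libraries. In BRAF PI3Kα libraries it read 3371 and 3184, then 2535, 541, 804 and 899, then 552 and 723. The 3 highest values, 2535 and above, were those of the libraries low in epithelial markers, and the other 5 lay inside the BRAF range. For Lama4 the log2 fold change was 1.13 ± 0.48 (SE; adjusted p = 0.684; exact permutation p = 0.0619), 0.33 without the 3 libraries (adjusted p = 0.931) and 0.46 with the endothelial marker level as a covariate (adjusted p = 0.947).

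Lamc1, the gamma chain of most laminins, lay at 2752 to 4733 (median 3763) in BRAF and at 3186 to 9681 (median 5694) in BRAF PI3Kα libraries. Its log2 fold change was 0.58 ± 0.21 (SE; adjusted p = 0.587; exact permutation p = 0.0196), 0.35 without the 3 libraries (adjusted p = 0.842) and 0.41 with the endothelial marker level as a covariate (adjusted p = 0.859). Lamc3, a low gamma chain, lay at 0 to 66.3 against 26.8 to 288, with an estimate of 2.07 ± 0.93 (adjusted p = 0.711; exact permutation p = 0.0653) one of 1.26 without them and one of 0.88 with that covariate. The epithelial chains Lamb3 and Lama3 had estimates of -0.30 ± 0.19 and 0.03 ± 0.33, each with an unadjusted p above 0.05.

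Of the linkers, Agrn lay at 2437 to 3217 (median 2653) in BRAF and at 2596 to 4294 (median 3553) in BRAF PI3Kα libraries. Its log2 fold change was 0.34 ± 0.15 (SE; adjusted p = 0.688; exact permutation p = 0.0226), 0.25 without the 3 libraries (adjusted p = 0.857) and 0.27 with the endothelial marker level as a covariate (adjusted p = 0.897). All 4 linkers had positive estimates, and Nid1 and Nid2 were among the genes highest in the same 3 libraries. Without these libraries, 6 of the 40 genes had an unadjusted p under 0.05, 5 of them higher, against 1100 of 17527 genes, and the median log2 fold change was 0.18. Of the 8, Itga5 and Itgax kept an unadjusted p under 0.05 in that setting. Among members not yet named with a value, the estimates over all weeks were 0.53 for Itga1, 0.34 for Itga2, -0.70 for Itga10 and -0.95 for Itga11 (collagen-binding subunits), 0.30 for Itga4, 0.63 for Itgae and 0.56 for Itgb7 (leukocyte list), and 0.36 for Lama5 and 0.19 for Lamb2. The genotypes overlapped for each of these.

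**Figure D2:**
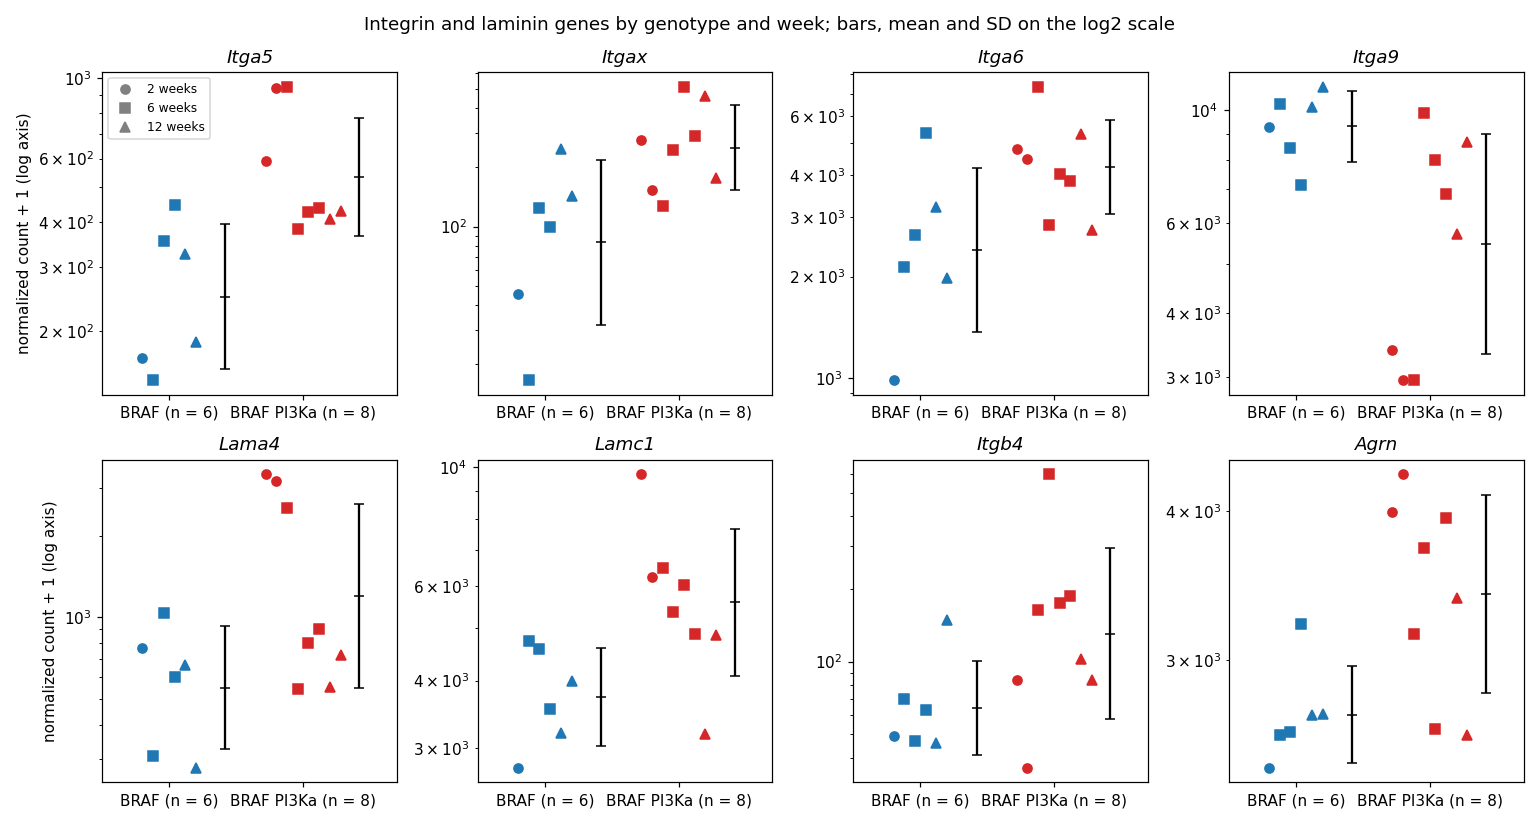
Normalized count + 1 (log axis) of 8 genes in each library of BRAF (blue, n = 6) and BRAF PI3Kα (red, n = 8) tumors, with circles, squares and triangles for 2, 6 and 12 weeks and a bar for the mean and SD on the log2 scale. For Itga5, 3 of the 8 BRAF PI3Kα values lie above the highest BRAF value (446), and for Itgax 4 of 8 (highest BRAF value 248), while in Lama4 and Itga9 the 3 libraries low in epithelial markers stand apart from the other 5 of their genotype.

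At 6 weeks alone (3 BRAF against 4 BRAF PI3Kα libraries), none of the 40 passed an adjusted p of 0.05 in limma, where 4 of 17558 genes did (0.0228%), and 2 of the 40 had an unadjusted p under 0.05, against 4.24% of genes. Itgb4 (chromosome 11, 115974709 to 116008412), which anchors hemidesmosomes to keratin filaments, read 68.7, 45.7 and 61.9 in BRAF and 162, 596, 173 and 186 in BRAF PI3Kα libraries. Every BRAF PI3Kα value was above every BRAF value. The log2 fold change was 2.01 ± 0.56 (SE; adjusted p = 0.873), with an exact permutation p of 0.0286, the smallest that 35 splits allow. Without the libraries low in epithelial markers it was 2.19 (adjusted p = 0.661). At 2 weeks Itgb4 read 48.1 in BRAF and 83.1 and 35.3 in BRAF PI3Kα libraries, and at 12 weeks 44.9 and 148 against 101 and 82.8, where the genotypes overlapped.

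Itgax had the other small p at 6 weeks, with a log2 fold change of 2.15 ± 0.70 (SE; adjusted p = 1.0) and an exact permutation p of 0.0571. Its 4 BRAF PI3Kα values, from 127 to 514, were above the 3 BRAF values, from 15.6 to 123, by a narrow margin at the lower end. Its estimate was 2.49 without the 3 libraries low in epithelial markers (adjusted p = 0.729), and 1.23 without BRAF replicate 1. Lamc1 was the third gene whose genotypes did not overlap at 6 weeks, at 3541 to 4733 against 4878 to 6479, with an estimate of 0.41 ± 0.23 (adjusted p = 1.0). These 3 of 40 compare with 5.22% of all genes. The difference between the PI3Kα effect at 12 and at 6 weeks was tested as an interaction. None of the 40 passed at an adjusted p (0.0% of genes did) or had an unadjusted p under 0.05 (504 genes, 2.87%). For Itgb4 the interaction estimate was -1.85 ± 0.92 (adjusted p = 1.0). On simulated data with changes of known size this interaction fit recovered almost none of them, far fewer than the other comparisons simulated, so the absence of calls says little.

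Between 2 and 6 weeks, with genotype as a term, none of the 40 passed an adjusted p of 0.05 in limma, where 9 of 17558 genes did (0.0513%). At an unadjusted p under 0.05 there were 8, of which 7 were lower at 6 weeks, against 11.9% of all genes. They were 4 laminin chains (Lama2, Lama3, Lama4, Lamb1), the β3 and β5 subunits that pair with αv (Itgb3, Itgb5), Dag1, and, in the other direction, Itgb4. Lama3, an alpha chain of epithelial laminins, read 4460 in BRAF at 2 weeks against 2644, 2820 and 3015 at 6 weeks. In BRAF PI3Kα libraries it read 5561 and 5291 at 2 weeks against 2971, 2047, 2285 and 2776 at 6 weeks. Within each genotype, each 2 week value was above each 6 week value.

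The Lama3 log2 fold change was -0.96 ± 0.29 (SE; adjusted p = 0.240), and -0.68 without the 3 libraries low in epithelial markers (adjusted p = 0.729), when 1 library is left at 2 weeks. Itgb5 read 570, 250.5 and 537 at 2 weeks and, at 6 weeks, 94.9, 204 and 356 in BRAF and 500, 59.8, 80.1 and 155 in BRAF PI3Kα libraries. At 6 weeks, BRAF replicate 3 and BRAF PI3Kα replicate 1 lay within the 2 week range and the other 5 below it. Its log2 fold change was -1.43 ± 0.62 (adjusted p = 0.387), and -1.89 without the 3 libraries (adjusted p = 0.512). The estimates of the other 6 were -1.26 for Lama4, -1.19 for Lama2, -1.06 for Itgb3, -1.01 for Lamb1, -0.57 for Dag1 and 1.40 for Itgb4. Without the 3 libraries they were -0.45 for Lama4, -0.24 for Lama2, -1.67 for Itgb3, -0.99 for Lamb1, -0.37 for Dag1 and 0.67 for Itgb4. Without the 3 libraries, 7 of the 40 had an unadjusted p under 0.05, and 6 of these were higher at 6 weeks, against 1740 of 17527 genes. The 2 week group is then 1 BRAF library, assumed to vary like the other groups, so this direction rests on it.

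Between 6 and 12 weeks, none of the 40 and no gene at all (0.0%) passed an adjusted p of 0.05 in limma, and 5 of the 40 had an unadjusted p under 0.05, against 933 genes (5.31%). Lama1, an alpha chain typical of embryonic basement membranes, lay at 0 to 21.1 in the 7 libraries at 6 weeks. At 12 weeks it read 39.7 and 15.6 in BRAF and 304 and 63.4 in BRAF PI3Kα libraries. Only BRAF 12 week replicate 2 lay within the 6 week range. For Lama1 the log2 fold change was 2.78 ± 0.87 (SE; adjusted p = 0.875), and 2.47 without the 3 libraries low in epithelial markers (adjusted p = 0.781).

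Itgb2, the β2 subunit common to leukocyte integrins, read 312, 372 and 448 at 6 weeks and 464 and 547 at 12 weeks in BRAF libraries. In BRAF PI3Kα libraries it read 194, 149, 461 and 218 at 6 weeks and 1509 and 573 at 12 weeks. Within each genotype both 12 week values lay above all 6 week values. Its log2 fold change was 1.27 ± 0.48 (SE; adjusted p = 0.901), and 1.17 without the 3 libraries low in epithelial markers (adjusted p = 0.782). BRAF PI3Kα 12 week replicate 1, with the highest Itgb2 and Itgam (2397, against 96.6 to 550 in the other 13 libraries), was also the highest of the 14 in leukocyte markers (9.67), whose part in the result was not tested.

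The other 3 had lower means at 12 weeks. Itga8 read 6882 and 521 in BRAF and 65.0 and 4608 in BRAF PI3Kα libraries at 12 weeks, against 2079 to 15410 at 6 weeks (log2 fold change -2.35 ± 1.01, adjusted p = 0.901). Lama2 had an estimate of -1.06 ± 0.43, and Itgb6, the partner of αv in TGFβ activation, of -0.57 ± 0.25 (adjusted p = 0.901 for both). Without the same 3 libraries the estimates were -2.07 for Itga8, -0.98 for Lama2 and -0.63 for Itgb6. With 1 library left out at a time, the Itga8 estimate ran from -3.27 to -0.90 and that of Lama2 from -1.51 to -0.65, both nearest to 0 without BRAF PI3Kα 12 week replicate 1. Without the 2 libraries whose Kdm5d goes against the labelled sex, both of them 12 week BRAF PI3Kα libraries, 1 of the 40 had an unadjusted p under 0.05, against 608 of 17505 genes. That gene was Itgb6, at -0.83, and Lama1 then stood at 1.83, Itgb2 at 0.70, Itga8 at -1.29 and Lama2 at -0.45 (adjusted p = 0.999 for all 5).

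In the PGC1α cohorts the question was what the loss of the second Ppargc1a allele does in BRAF tumors at 12 weeks. None of the 38 genes tested and none of all 17424 (0.0%) passed an adjusted p of 0.05 in limma, and 4 of 38 had an unadjusted p under 0.05, against 667 genes (3.83%). The median log2 fold change was 0.18 over the 38 (0.04 without het replicate 3) and 0.01 over all genes tested. Of the 38 estimates 20 were positive and 18 negative, and 51.1% of all genes had positive ones. All 5 laminin receptors had negative estimates of small size (median -0.18), and 7 of the 8 leukocyte-listed integrins had positive ones (median 0.80). Itgb2 (chromosome 10, 77530252 to 77565708) had the smallest p. It read 109, 81.8, 60.8, 139.5 and 275 in het and 615, 301, 551 and 319 in null libraries, and every null value was above every het value.

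The Itgb2 log2 fold change was 1.86 ± 0.40 (SE; adjusted p = 0.398; exact permutation p = 0.0159, where 126 splits allow 0.0079). Summed leukocyte markers lay at 3434 to 5879 in het and 5591 to 8091 in null libraries, with all 12 above 0 in every library. Their mean log2 level lay at 5.47 to 7.39 and 7.44 to 8.15, without overlap. For Itgb2, genotype and leukocyte marker level therefore cannot be told apart. The alpha partners overlapped between the genotypes, at 56.0 to 277 against 181 to 428 for Itgal, 95.2 to 190 against 125 to 804 for Itgam and 37.8 to 311 against 43.8 to 619 for Itgax. With the endothelial marker level as a covariate, which itself separates the genotypes, the Itgb2 estimate was 0.36 (adjusted p = 0.899).

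Lama4 read 29.1, 37.8, 26.2, 14.4 and 34.7 in het and 60.8, 44.5, 68.5 and 135 in null libraries, again without overlap. Its log2 fold change was 1.35 ± 0.43 (SE; adjusted p = 0.874), with an exact permutation p of 0.0079, the smallest the design allows. Itgb5 read 14.7, 26.8, 6.86, 6.08 and 21.9 in het and 30.3, 54.0, 33.0 and 123 in null libraries, without overlap (log2 fold change 1.88 ± 0.59, adjusted p = 0.874; exact permutation p = 0.0159). Of the 38 genes tested, these 3 were the ones whose genotypes did not overlap, against 1.4% of all genes tested. The summed endothelial markers lay at 667 to 1164 in het and 1814 to 2505 in null libraries, with 12 of 14 above 0 in every het library and 14 of 14 in every null library. With their level as a covariate the estimates were 0.34 for Lama4 (adjusted p = 0.923) and 0.45 for Itgb5 (adjusted p = 0.924). Mesenchymal markers also separated the genotypes, at a mean log2 level of 3.96 to 4.76 in het and 5.21 to 6.61 in null libraries, with all 12 above 0 in every library and sums of 253 to 434 and 569 to 1810. Genotype and the levels of the endothelial, mesenchymal and leukocyte marker lists cannot be told apart here.

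Itgb6 was the fourth gene, with a lower mean in null libraries. It read 890, 444, 517, 537 and 778 in het and 125, 701, 554 and 143 in null libraries. The null libraries split into 2 values within the het range and 2 far below it, with a log2 fold change of -1.08 ± 0.48 (SE; adjusted p = 0.998) and an exact permutation p of 0.135. With the endothelial marker level as a covariate the Itgb6 estimate was -1.74 (adjusted p = 0.745), and with 1 library left out it ran from -1.50 to -0.68, the latter without null replicate 1. The epithelial laminin chains had estimates of -0.24 ± 0.27 for Lama3 and 0.12 ± 0.22 for Lamb3, each with an adjusted p of 0.998. Lamc3 was at 0 to 1.90 in these libraries, and Nid2 at 0.61 to 3.15 in het and 5.79 to 25.5 in null libraries, without overlap but both below the limit for the test.

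**Figure D3:**
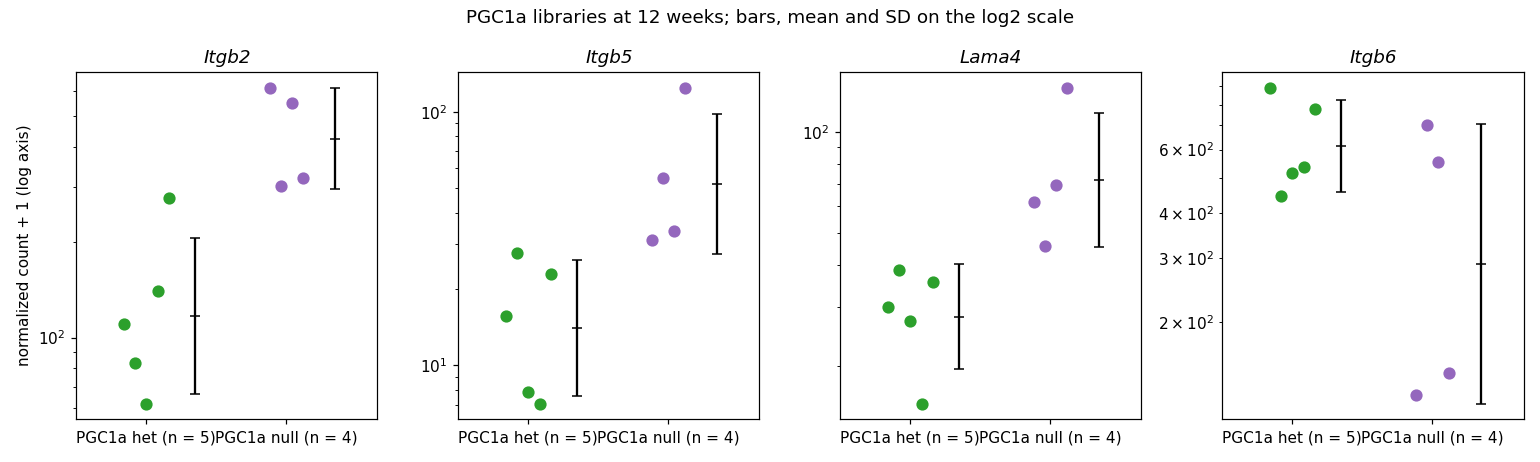
Normalized count + 1 (log axis) of Itgb2, Itgb5, Lama4 and Itgb6 in each library of BRAF tumors at 12 weeks with 1 (het, green, n = 5) or both (null, purple, n = 4) Ppargc1a alleles removed, with a bar for the mean and SD on the log2 scale. The genotypes do not overlap for Itgb2, Itgb5 and Lama4, and for Itgb6 only 2 of the 4 null libraries lie below the het libraries.

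**Figure D4:**
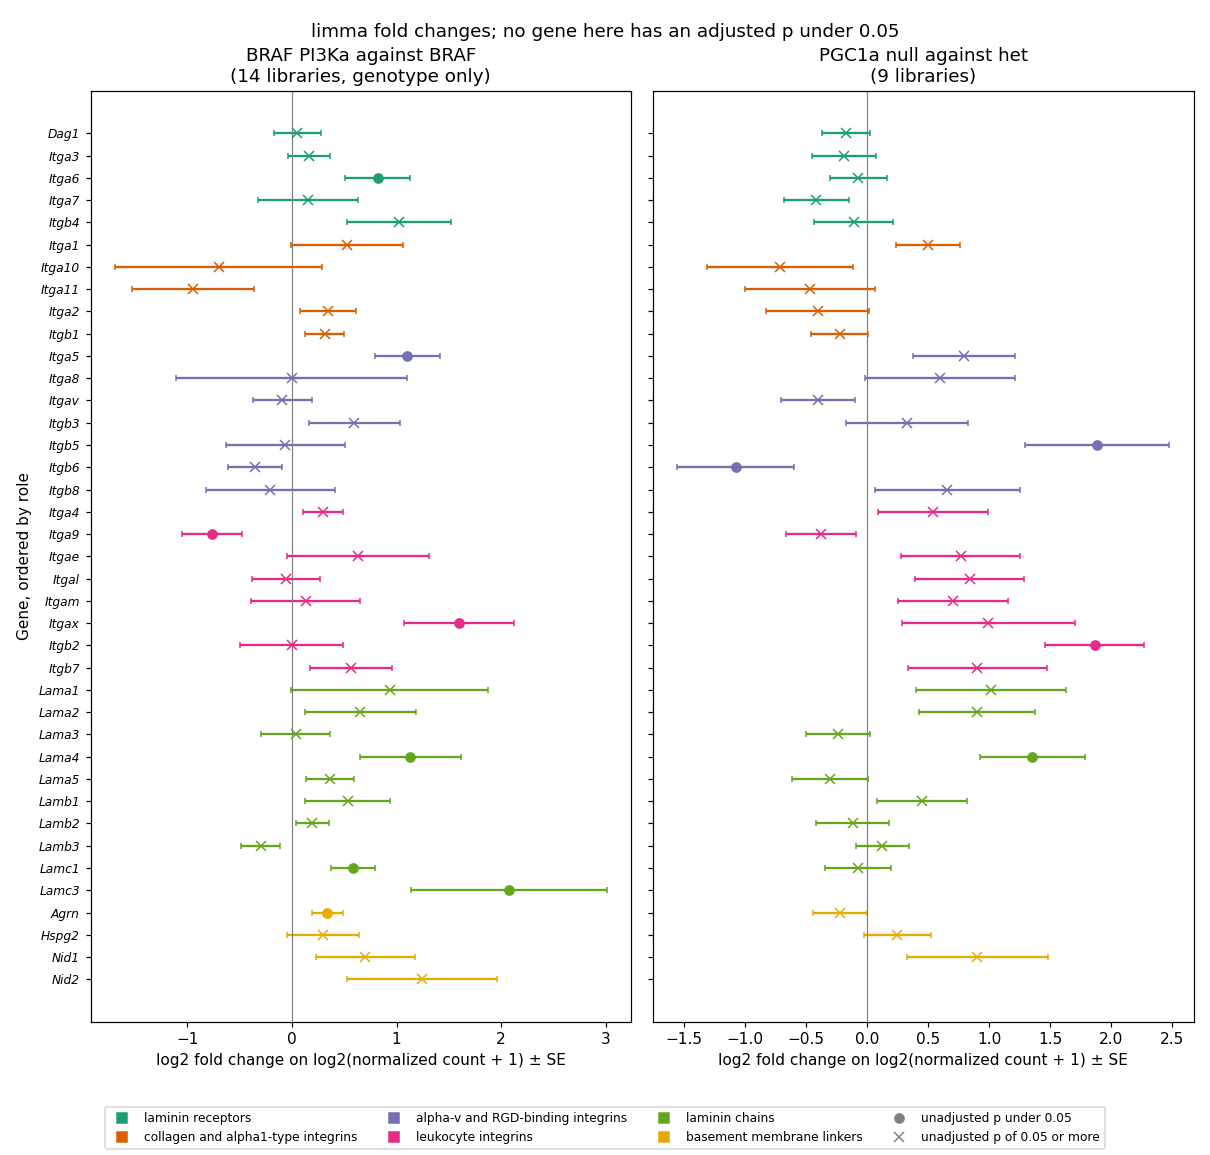
Log2 fold change ± SE (limma, log2(normalized count + 1)) of the genes, colored by role, for BRAF PI3Kα against BRAF over all weeks (left) and PGC1α null against het (right). Circles mark an unadjusted p under 0.05 (8 on the left, 4 on the right). Lama4 is a circle above 0 on both sides.

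Genes that act with these proteins were followed as 2 further lists. Of 22 integrin adaptors, which couple integrin tails to actin and signaling (talins, kindlins, the ILK complex and others), none passed an adjusted p of 0.05 in any of the 6 comparisons, and of 17 matrix ligands and further basement membrane genes none did either. At an unadjusted p under 0.05 over all weeks, 3 adaptors and 3 ligand genes had higher means in BRAF PI3Kα tumors and 1 ligand gene a lower one (4 of 17 ligand genes and 3 of 22 adaptors, against 6.83% of all genes). The smallest p-values were those of Col17a1, the transmembrane collagen of hemidesmosomes (log2 fold change 1.62 ± 0.55, adjusted p = 0.520), Col4a2, a chain of basement membrane type IV collagen (0.39 ± 0.14, adjusted p = 0.565), and Bcam, a receptor for Lama5 laminins (-0.64 ± 0.26, adjusted p = 0.658). Col17a1 lay at 5.24 to 51.5 in BRAF and 14.2 to 154 in BRAF PI3Kα libraries, so the ranges overlapped.

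From 2 to 6 weeks, Fn1, which encodes the α5β1 ligand fibronectin, had an estimate of -1.16 ± 0.30 (adjusted p = 0.174), and Npnt, the α8β1 ligand nephronectin, of -1.24 ± 0.34 (adjusted p = 0.201). Ilk, the kinase-like hub of the adaptor complex, had -0.83 ± 0.25 (adjusted p = 0.230). From 6 to 12 weeks the estimates with the smallest p were -1.30 ± 0.47 for Ntn4 (netrin-4, a laminin binder), 1.26 ± 0.46 for the kinase Ptk2b and -0.54 ± 0.23 for Ilk (adjusted p = 0.901 for all 3). In the PGC1α cohorts 2 adaptors had an unadjusted p under 0.05, where 3.83% of all genes did. The 2 adaptors were Parvg, the parvin of blood cells (2.00 ± 0.77, adjusted p = 0.998), and Lims2 (1.58 ± 0.64, adjusted p = 0.998). At 6 weeks and in the interaction no adaptor or ligand gene had an unadjusted p under 0.05. Values of adaptor and ligand genes are not given without the 3 libraries low in epithelial markers.

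Between genes and markers, 8 relations (4 per table) were computed, each between a gene and the mean log2 level of a marker list, with p-values adjusted over the 8. Itgb2 followed the leukocyte markers across the 14 BRAF and BRAF PI3Kα libraries (Pearson r = 0.77, permutation p = 0.0014, adjusted 0.0019; Spearman rho = 0.73, p = 0.0040, adjusted 0.0079). Within BRAF (n = 6) r was 0.92 (exact permutation p = 0.0181) and within BRAF PI3Kα (n = 8) 0.83 (exact permutation p = 0.0056). Without the 2 libraries farthest from the median marker level, BRAF PI3Kα 12 week replicate 1 and BRAF 2 week replicate 1, r was 0.53. The relations of Lama4 and Itga8 in that table joined 2 separate clusters, the 3 libraries low in epithelial markers and the other 11, and are given over the 11.

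Over these 11 libraries, with p-values adjusted over 4 relations, Itga8 and the mesenchymal markers had r = 0.89 (permutation p = 0.0014, adjusted 0.0055) and rho = 0.61 (p = 0.0511, adjusted 0.102). This rested on the 2 libraries farthest from the median, BRAF PI3Kα 12 week replicate 1 and BRAF 12 week replicate 2, without which r was 0.37. Lama4 and the endothelial markers had r = 0.59 (permutation p = 0.0550, adjusted 0.0734), rho = 0.40 (p = 0.222, adjusted 0.222) and r = 0.56 without the 2 farthest libraries. The 4 relations in the PGC1α cohorts, among the 8 computed, are not given as a pooled r, since each group held fewer than 6 libraries. Leukocyte, endothelial and mesenchymal marker levels also separated het from null libraries. The alveolar type 1 markers of the fourth relation overlapped, at 9.97 to 10.57 in het and 10.11 to 10.66 in null libraries.

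**Figure D5:**
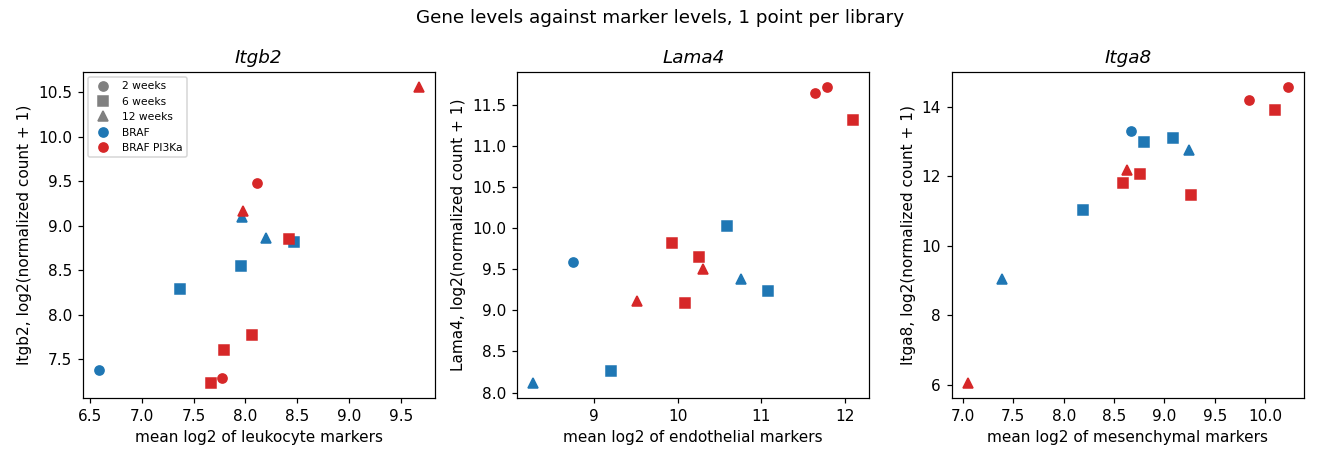
Log2(normalized count + 1) of Itgb2, Lama4 and Itga8 (y axes) against the mean log2 level of leukocyte, endothelial and mesenchymal markers (x axes), 1 point per library of BRAF (blue) and BRAF PI3Kα (red) tumors, with shapes for week. The 3 libraries low in epithelial markers form the upper right group for Lama4 and Itga8.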

How the data were processed

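Gene tables of normalized counts were deposited, a signal that the authors obtained by running Salmon, then DESeq2 normalization on Galaxy (GRCm38, FastQC, Salmon and DESeq2 are in the submitters' processing notes, versions not given in the sources used here). Of the 4000 lowest values above 0 in each of the 23 libraries, 12.25% to 53.8% lay within 0.01 of a whole multiple of the most frequent one, so whole reads could not be recovered. The table of BRAF and BRAF PI3Kα tumors and that of the PGC1α cohorts were normalized separately and compared only within themselves. The tables of the authors' own fold changes and p-values were not used. Per-sample columns with no sample numbered 0. The library preparation was Nugen Ovation Ultralow V2 on RNA of sorted cells, and the sequencing depth is unknown, so no counting interval is given.

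Tests were limma 3.58.1 (R 4.3.3) with an intensity trend on log2(normalized count + 1), genes with a mean of at least 10, two-sided, Benjamini-Hochberg over all genes tested, threshold 0.05. Fold changes on this scale understate those of low genes. BRAF PI3Kα against BRAF over all weeks used genotype alone, after the study's methods, and the 6 week comparison, weeks and interaction used all 14 libraries. Exact permutation tests were two-sided on mean log2 values, and correlations used 100000 resamples, exact under 10 libraries (Python 3.11.15, scipy 1.17.1). The fits were tested on simulated data. A gene was named with a fold change where its unadjusted p was under 0.05 (at most the 8 smallest per comparison), adaptor and ligand genes by the 3 smallest such p. Estimates of other genes (Itgb4 and Itgb2 over all weeks, Lama3, Lamb3, Lamc1 at 6 weeks, Itgb4 in the interaction, and those given over all weeks for members not otherwise named) were chosen after their values were seen. Members given no value of their own enter the counts and medians, and 1 gene is not reported here. Genes and lists were chosen with earlier results of these data known. Transcript lengths and gene positions came from GENCODE vM21 (GRCm38), start regions from RefSeq (GRCm38.p6). Alternatives were another pseudocount, filters, quantile normalization, labelled sex, week as a factor, a replicate block, each library left out, longest transcripts and, chosen after seeing the data, 2 sets of libraries left out and the endothelial marker level as a covariate.

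Labels give groups the same replicate numbers, but nothing ties a number to a litter or day. Deviations of same-numbered libraries correlated at -0.28, -0.03 and -0.01 at 6 weeks and between -0.47 and 0.21 in the PGC1α cohorts. In these cohorts replicate 1 (0.21) matched its own number best. At 12 weeks, 2 libraries per group force the same value, -0.15, on both replicates. With so few libraries per group the check cannot decide whether the numbers pair the samples.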

Additional observations from a re-analysis of the deposited data

Results flagged for a closer look

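Among 46 sets of a named gene and a genotype, 4 held a library farther from the others than Dixon's 95% limit on the log2 scale, and chance flags about 1 in 20 sets. In the 6 BRAF libraries these were Agrn in 6 week replicate 3 (3217, others 2437 to 2703), Itgb4 in 12 week replicate 2 (148, others 44.9 to 68.7) and Lama1 in 6 week replicate 1 (listed at 0, others 11.5 to 39.7). In the 8 BRAF PI3Kα libraries it was Itga8 in 12 week replicate 1 (65.0, others 2783 to 24355), the library that also had the highest leukocyte and the lowest mesenchymal marker level (7.05) of the 14.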

How the results depend on the processing

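None of the 40 genes had an adjusted p under 0.05 in any of the 6 comparisons under any alternative run, and none of the 27 named estimates changed sign in 573 refits. Counts over all genes moved more. Over all weeks they were 4 in the main setting and 7 with a pseudocount of 4, and 3 to 9 with 1 library left out. At 6 weeks they were 4, and 7 with a pseudocount of 4 or quantile normalization, 1 without the low filter, with labelled sex or without the 2 libraries of doubtful sex, 10 with the endothelial covariate and 1 to 12 with 1 library left out. From 2 to 6 weeks they were 9, and 3 with a pseudocount of 4 or without the 2 libraries, 4 with quantile normalization or labelled sex, 0 without the 3 libraries low in epithelial markers, and 1 to 102 with 1 library left out (102 without BRAF 2 week replicate 1, 47 without BRAF PI3Kα 6 week replicate 1). For the interaction they were 0, and 2 without the low filter, with quantile normalization or without the 3 libraries, and 0 to 1 with 1 library left out. For the other 2 comparisons they stayed at 0. The cause was not tested.

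Of the 40, those at an unadjusted p under 0.05 over all weeks were 8 (1200 of all genes tested). They were 4 with labelled sex (887 of all genes) or the endothelial covariate (1042), and 5 without BRAF 6 week replicate 1 (942). At 6 weeks they were 2 (744 of all genes), and 1 without BRAF 6 week replicate 1 (544) and 4 with the endothelial covariate (930). From 2 to 6 weeks they were 8 (2095 of all genes). They were 1 without BRAF PI3Kα 2 week replicate 2 (1915) and 13 without BRAF PI3Kα 6 week replicate 1 (2756). From 6 to 12 weeks they were 5 (933 of all genes), and 3 without BRAF 6 week replicate 3 (758). They were 2 without BRAF PI3Kα 12 week replicate 1 (507) or BRAF 12 week replicate 2 (698). They were 8 without BRAF 12 week replicate 1 (1417) or BRAF PI3Kα 12 week replicate 2 (1124). For the interaction they were 0, and 1 with a replicate block or without the 3 libraries and 0 to 3 with 1 library left out (3 without BRAF PI3Kα 12 week replicate 2, 2 without either BRAF PI3Kα 2 week library). Over all genes the interaction had 504 at such a p, 450 with a replicate block and 698 without the 3 libraries. In the PGC1α cohorts the members were 4 (667 of all genes), and 2 with the endothelial covariate (1130). With a replicate block at 6 weeks 0 genes in all passed, against 4. The pairing check cannot decide whether same-numbered libraries belong together. The block gave 7 of the 40 at an unadjusted p under 0.05 over all weeks (923 of all genes), against 8. In the PGC1α cohorts it gave 6 (574 of all genes), against 4. The interaction could not be fitted without the 2 libraries of doubtful sex label, and the week comparisons were run without the block. Few libraries per genotype and week (1 to 5) and the unknown depth limit all of these values.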
